A study of Mus musculus with 9 samples.

Results

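A set of 7 genes of cardiac pacemaking and conduction was examined, chosen by their symbols in the deposited count table, namely Scn4b, Hcn2, Hcn4, Gja5, Gjc1, Cacna1g and Cacna1h. All 7 members were found among the 55401 genes of the table. The 9 libraries came from primary neonatal mouse ventricular myocytes (NMVMs) of wild-type C57BL/6J pups aged 1 day. The 3 control cultures stayed at normal oxygen in complete DMEM with 10% FBS. For the 3 hypoxia cultures an oxygen-absorbing sealed chamber was used for 6 h, with DMEM holding neither glucose nor serum, and the 3 Hypoxia+rSRGN cultures had the same exposure with recombinant SRGN, the proteoglycan serglycin, in the medium. Oxygen, glucose and serum changed together between control and both other groups, so their effects cannot be told apart. Whether replicates came from separate isolations is not given in the labels, and the p-values measure only the spread between these libraries, which may be technical.

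Each heartbeat starts in the sinoatrial node, where HCN channels pass the inward "funny" current that brings the cell back to threshold and T-type calcium channels add to the late part of that depolarization. The impulse then passes from cell to cell through gap junctions built of connexins, and fast conduction also depends on the voltage-gated sodium channel with its beta subunits. In the adult heart Hcn4, Gjc1 (Cx45) and the T-type channels are known for the nodes, and Gja5 (Cx40) for the atria and the His-Purkinje system. The immature ventricle, in particular its trabecular layer, also uses several of these genes.

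Total counts were 21669017 to 22781557 in control, 16583985 to 18148474 in hypoxia and 16640239 to 20826701 in Hypoxia+rSRGN. The labelled cell type was checked on 20 cardiomyocyte genes, all of them detected in every group, with a summed level of 53734 to 65666 CPM (counts per 1000000 after TMM scaling) in control, 4426 to 6784 in hypoxia and 8886 to 9290 in Hypoxia+rSRGN. The summed level of 15 fibroblast genes was 13410 to 15620 CPM in control, 28176 to 31029 in hypoxia and 30957 to 31978 in Hypoxia+rSRGN. In hypoxia against control, the genes of other cell types also moved. Of the tested macrophage genes 11 of 13 were called lower and 1 higher (median log2 -3.75). The higher one was Cx3cr1, a chemokine receptor gene named here after its values were seen, at a mean of 0.285 CPM in control and 114 CPM in hypoxia, so most of the list's summed level in hypoxia (109 to 165 CPM, beside 240 to 256 in control) was from this gene. Of the atrial myocyte genes 6 of 8 were called lower (median log2 -2.30), and of the ventricular myocyte genes 5 of 5 (median log2 -3.77). Most of the ventricular genes are also among the 20 cardiomyocyte genes, so these lists are not separate. Of the endothelial genes 9 of 15 were called lower and 2 higher (median log2 -0.90), although their summed level was 355 to 382 CPM in control and 654 to 706 in hypoxia. Their part in the members' values was not tested. In bulk RNA, fewer cells of a type and less RNA per cell cannot be told apart.

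Promoter sequence is shown for 3 members. These were picked because Hcn2 and Hcn4 belong to the same family and fell by unequal amounts, and Gja5 alone was called after rSRGN. RefSeq windows on GRCm38.p6 matched 4 of the 7 members by symbol (Scn4b, Hcn2, Hcn4 and Gja5). The 250 bases before the annotated start are printed on the + strand, and capitals mark matches to the patterns listed after them.
Hcn2, chr10:79716384-79716633: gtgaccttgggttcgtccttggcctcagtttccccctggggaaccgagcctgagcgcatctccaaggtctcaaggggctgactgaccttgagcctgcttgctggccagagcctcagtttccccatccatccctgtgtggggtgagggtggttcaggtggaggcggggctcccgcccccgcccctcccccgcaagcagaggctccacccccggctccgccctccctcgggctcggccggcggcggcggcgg
Hcn4, chr9:58822699-58822948: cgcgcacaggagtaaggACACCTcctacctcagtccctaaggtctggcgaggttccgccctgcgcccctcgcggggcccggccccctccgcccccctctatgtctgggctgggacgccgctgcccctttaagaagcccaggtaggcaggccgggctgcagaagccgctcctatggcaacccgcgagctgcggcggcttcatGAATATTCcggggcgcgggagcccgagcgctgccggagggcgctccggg
Gja5, chr3:97032152-97032401: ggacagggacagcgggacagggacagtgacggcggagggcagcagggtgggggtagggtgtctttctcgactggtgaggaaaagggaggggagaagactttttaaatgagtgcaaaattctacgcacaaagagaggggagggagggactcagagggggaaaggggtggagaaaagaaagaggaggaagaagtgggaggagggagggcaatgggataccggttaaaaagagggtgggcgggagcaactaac
The Hcn2 and Hcn4 windows lie outside the exons and introns of the gene models used for counting, and the Gja5 window lies in an intron of its longer model.

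The search covered both strands for the letters of GATA factor sites (AGATAA and TGATAA), an NKX2-5 site (TNAAGTG), a T-box site (AGGTGT), the core of the hypoxia-inducible factor element (ACGTG), a pair of heat shock units (GAANNTTC) and the TATA box (TATAAA). Of 32817 mouse promoter windows of this length, 9.99% held AGATAA, 7.95% TGATAA, 10.1% TNAAGTG, 11.8% AGGTGT, 16.6% ACGTG, 6.69% GAANNTTC and 12.4% TATAAA. The Hcn4 window held a T-box match on the opposite strand, starting 233 bases before the start, and a heat shock match starting 49 bases before it. The Hcn2 and Gja5 windows held none of these letter patterns. GC content was 70.4% for Hcn2, 71.2% for Hcn4 and 56.4% for Gja5, beside a median of 52.4% over all windows, and CpG counts were 16, 25 and 7 beside a median of 6. A match describes the sequence and is no evidence of binding.

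To ask which conduction genes changed when the cultures were deprived of oxygen, glucose and serum, hypoxia was compared with control. Every member with enough counts to be tested (6 of 7) was called lower, beside a whole table where 25.1% of the 16762 genes tested were called lower and 26.4% higher. Calls required an edgeR quasi-likelihood p under 0.05 after adjustment (Benjamini-Hochberg, all genes tested) together with a change of 1.5-fold or more. The falls differed in size. Gja5, Cacna1h, Cacna1g and Hcn4 fell by 14.96-, 13.6-, 13.1- and 7.44-fold, while Hcn2 and Gjc1 fell by 1.94- and 1.92-fold. The median log2 fold change was -3.30 over the 6 members and 0.05 over all genes tested.

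**Figure D1:**
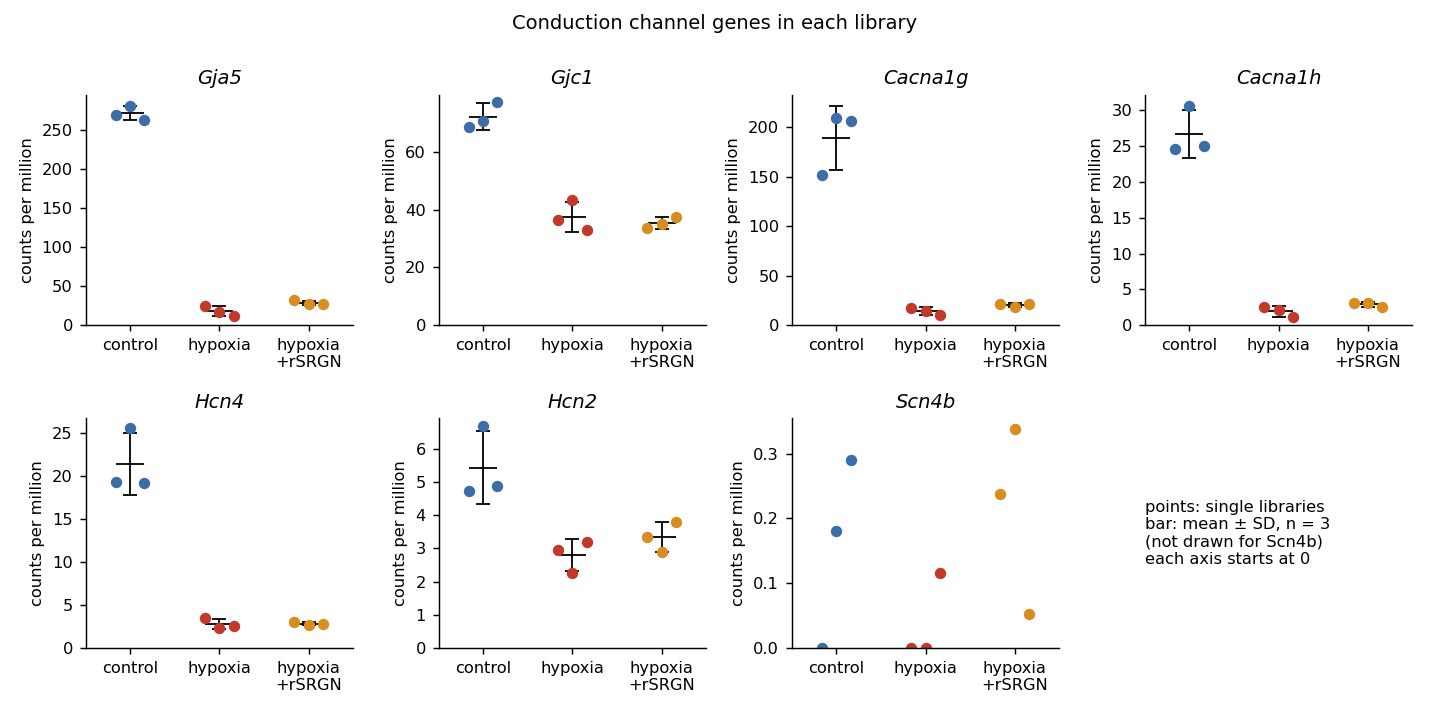
Level of each of the 7 genes in every library, in CPM on linear axes that start at 0. Points are libraries (3 per group) and black bars the mean and SD. All 3 control points lie above the 6 hypoxic points for each gene but Scn4b, which stays under 0.34 CPM throughout. The share of all tested genes with such a gap is not given here.

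Gap junction genes fell by unequal amounts. Gja5 encodes Cx40, a large-conductance connexin of atrial and Purkinje myocytes (chr3:96904693-97077416, + strand, GRCm38). It stood at 270, 281 and 263 CPM in the control libraries, at 24.4, 17.7 and 12.1 CPM in hypoxia and at 32.0, 27.5 and 27.8 CPM in Hypoxia+rSRGN. The control libraries lay far above the other 6, and no Hypoxia+rSRGN library was as low as any hypoxia library. The log2 fold change from control to hypoxia was -3.90 (SE 0.14, edgeR adjusted p = 3.65e-16). Gja5 shares 165 exon bases with Gpr89 on the opposite strand, which held 259 to 400 counts per library, and the counting did not use strand.

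Gjc1 encodes Cx45, the low-conductance connexin of the nodes that is also widespread in the embryonic heart (chr11:102799579-102819700, - strand). Its levels were 68.5, 70.6 and 77.2 CPM in control, 36.3, 43.2 and 32.9 CPM in hypoxia and 33.5, 35.2 and 37.6 CPM in Hypoxia+rSRGN. Control did not overlap the hypoxic groups, and these overlapped each other. The log2 fold change in hypoxia was -0.94 (SE 0.10, edgeR adjusted p = 9.85e-09).

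Both T-type calcium channel genes among the members fell by similar amounts. Cacna1g encodes the pore subunit Cav3.1 (chr11:94408391-94474198, - strand), and its level was 152, 209 and 206 CPM in control, 17.9, 14.7 and 10.5 CPM in hypoxia and 21.8, 18.2 and 21.6 CPM in Hypoxia+rSRGN. Cacna1h encodes the pore subunit Cav3.2, a T-type form known from the developing heart (chr17:25374285-25433783, - strand), and stood at 24.5, 30.6 and 24.9 CPM in control, 2.58, 2.14 and 1.10 CPM in hypoxia and 3.16, 3.13 and 2.54 CPM in Hypoxia+rSRGN. For both genes the control libraries lay far above the other 6. Log2 fold changes in hypoxia were -3.71 (SE 0.14, edgeR adjusted p = 8.38e-16) for Cacna1g and -3.77 (SE 0.19, edgeR adjusted p = 9.50e-14) for Cacna1h. Cacna1h shares 158 exon bases with Tpsg1, which had 0 counts in all 9 libraries.

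The pacemaker channel genes differed from each other. Hcn4, the main HCN isoform of the sinoatrial node (chr9:58823412-58863175, + strand), stood at 19.4, 25.6 and 19.2 CPM in control, 3.55, 2.43 and 2.61 CPM in hypoxia and 3.04, 2.70 and 2.80 CPM in Hypoxia+rSRGN. Hcn2, a faster-gating isoform that is common in ventricular myocardium (chr10:79716634-79736108, + strand), stood at 4.72, 6.68 and 4.88 CPM in control, 2.95, 2.25 and 3.19 CPM in hypoxia and 3.34, 2.89 and 3.80 CPM in Hypoxia+rSRGN. Control did not overlap the hypoxic groups for either gene, but the gap was wide for Hcn4 and narrow for Hcn2. The log2 fold change in hypoxia was -2.90 for Hcn4 (SE 0.17, edgeR adjusted p = 1.04e-12) and -0.95 for Hcn2 (SE 0.22, edgeR adjusted p = 0.000678).

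Scn4b, the sodium channel beta-4 subunit, an accessory protein that tunes channel gating (chr9:45138395-45154152, + strand), was barely detected and did not reach the expression filter. It had 0, 4 and 6 counts in control, 0, 0 and 2 in hypoxia and 4, 7 and 1 in Hypoxia+rSRGN. The 3 groups overlapped. The ratio of hypoxia to control, from 2 and 10 counts, was 0.245 with an exact 95% interval of 0.0261 to 1.15, which covers counting error only.

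Levels between genes were compared per exon length, in TPM (counts scaled to exon length and to the library's total), as means of the 3 libraries. In control the order was Gja5 at 141 TPM, Cacna1g at 55.6, Gjc1 at 43.0, Hcn4 at 10.4, Cacna1h at 8.16, Hcn2 at 5.07 and Scn4b at 0.0931. Cacna1g and Gjc1 overlapped between libraries, as did Hcn4 and Cacna1h, and the other neighbours did not. In hypoxia the order became Gjc1 at 20.4 TPM, Gja5 at 8.63, Cacna1g at 3.88, Hcn2 at 2.41, Hcn4 at 1.29, Cacna1h at 0.543 and Scn4b at 0.0219, with no overlap between neighbours. Hypoxia+rSRGN kept this order, with Gjc1 at 20.9 TPM, Gja5 at 14.9, Cacna1g at 5.98, Hcn2 at 3.09, Hcn4 at 1.37, Cacna1h at 0.888 and Scn4b at 0.124, again without overlap between neighbours.

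The balance within a family was followed as the log2 ratio of TPM in each library. The 3 ratios in 3 comparisons gave 9 tests by a two-sided exact permutation over libraries, where 3 against 3 cannot give a p under 0.1, so none could pass 0.05. Hcn2/Hcn4 was -1.10, -0.998 and -1.04 in control and 0.67, 0.83 and 1.23 in hypoxia, so Hcn4 was the higher of the pair in each control library and Hcn2 in each hypoxia library. The difference of means was 1.96 (exact p = 0.1, adjusted 0.18). Gjc1/Gja5 was -1.78, -1.79 and -1.57 in control and 0.77, 1.48 and 1.64 in hypoxia, a difference of 3.01 (exact p = 0.1, adjusted 0.18), and it too changed sign in every library. Cacna1g/Cacna1h was 2.76 ± 0.21 in control and 2.89 ± 0.27 in hypoxia (SD, n = 3, exact permutation p = 0.5, adjusted 0.643), and the groups overlapped.

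**Figure D2:**
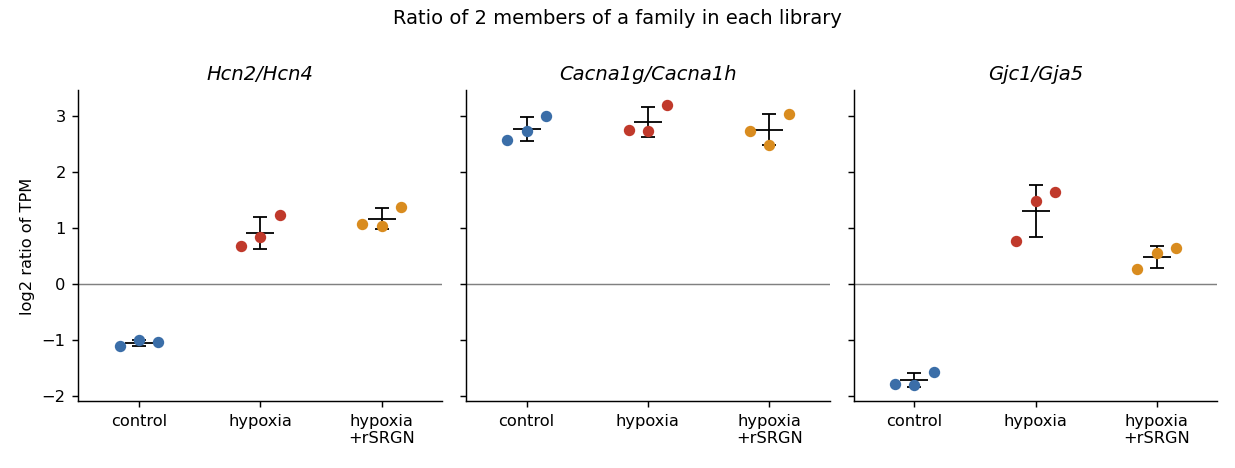
Log2 ratio of the TPM of 2 related genes in each library, with the mean and SD of 3 libraries per group as bars, and a line at 0 where both genes are equal. Hcn2/Hcn4 and Gjc1/Gja5 lie under 0 in control and above 0 in both hypoxic groups, while Cacna1g/Cacna1h overlaps between all 3 groups.

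The members were also measured against the cardiomyocyte genes of the same library, as log2 CPM of the member minus the mean log2 CPM of the 20 cardiomyocyte genes. That mean was 10.5 to 10.8 in control, 6.51 to 7.21 in hypoxia and 7.62 to 7.73 in Hypoxia+rSRGN. All 20 cardiomyocyte genes were called lower in hypoxia, with a median log2 fold change of -3.70. Relative to them, Cacna1g differed between hypoxia and control by 0.02 (exact permutation p = 0.9), Cacna1h by -0.09 (exact permutation p = 0.7) and Gja5 by -0.21 (exact permutation p = 0.2), and each overlapped control. Gjc1 was higher relative to them by 2.80, Hcn2 by 2.81 and Hcn4 by 0.86, with no overlap for any of these (exact permutation p = 0.1 each, the smallest possible, adjusted 0.225 over 18 tests). The part of myocyte number or of the other cell types in these values was not tested.

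**Figure D3:**
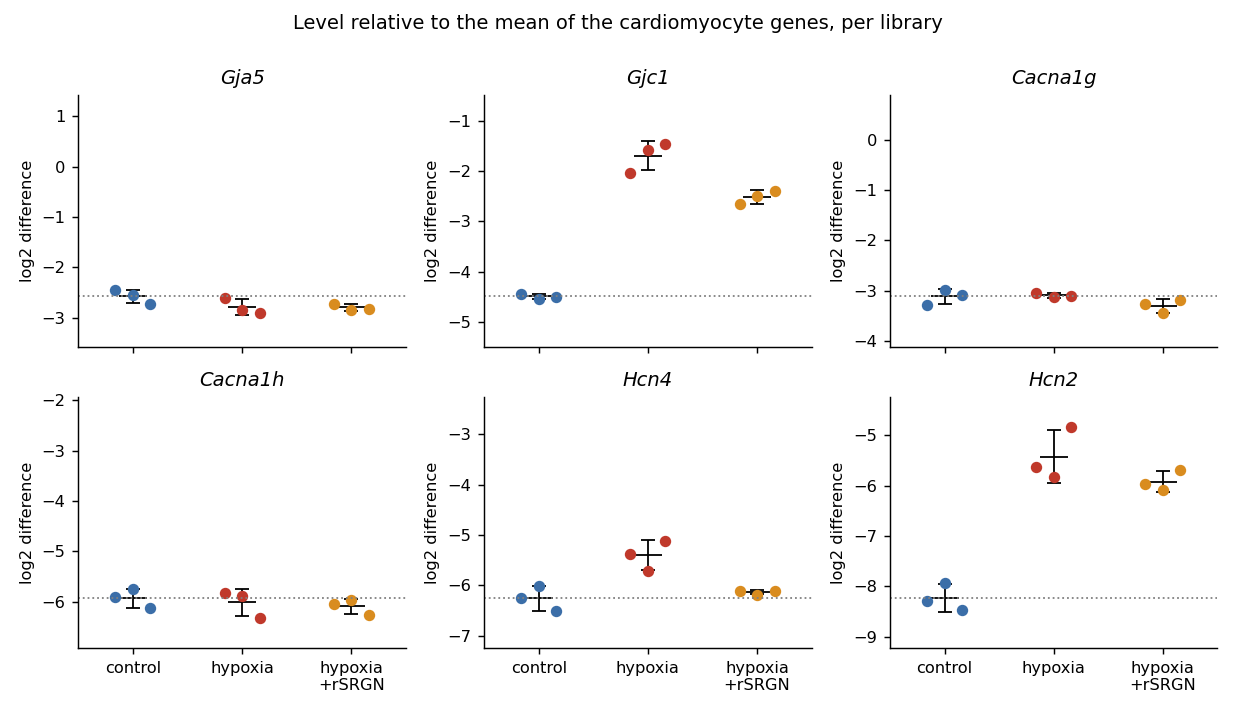
Level of each gene relative to the mean of 20 cardiomyocyte genes in the same library (log2 difference, each panel spanning 5 log2 units), with the mean and SD of 3 libraries as bars and the control mean as a dotted line. Gja5, Cacna1g and Cacna1h stay near their control mean in hypoxia, while Gjc1 and Hcn2 stand 2.80 and 2.81 above it.

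To ask what the added protein did during the deprivation, Hypoxia+rSRGN was compared with hypoxia. Of the 6 tested members only Gja5 was called, and it was higher, where 2.27% of all genes tested were called higher and 0.859% lower. Its 3 libraries at 27.5 to 32.0 CPM all lay above the hypoxia libraries at 12.1 to 24.4 CPM, a rise of 1.60-fold (log2 0.68, 95% interval 0.38 to 0.98, edgeR adjusted p = 0.00289). Against control its level was still 0.107-fold. Without hypoxia replicate 3, the lowest library for Gja5, the log2 rise was 0.46 with an edgeR adjusted p of 0.0101, under the 1.5-fold limit, and 0 of the 6 tested members were called, 2 having an unadjusted p under 0.05.

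Among the other members, Cacna1g was 1.42-fold higher (log2 0.51, 95% interval 0.19 to 0.82, edgeR adjusted p = 0.0242), which passed the p but not the fold limit, and its groups did not overlap. Cacna1h was at a log2 difference of 0.59 (95% interval 0.10 to 1.08, edgeR adjusted p = 0.0947), with overlapping groups. Without hypoxia replicate 1, the highest hypoxia library for these genes, both were called, at log2 values of 0.70 and 0.86. Without hypoxia replicate 3, only Gja5 kept an edgeR adjusted p under 0.05. Over the 16 alternative settings, log2 values went as low as 0.33 for Cacna1g and 0.32 for Cacna1h. Their adjusted p (edgeR or DESeq2) went as high as 0.138 and 0.417. The other 3 members gave intervals that included 0. These were -0.44 to 0.41 around -0.02 for Hcn4, -0.23 to 0.74 around 0.25 for Hcn2 and -0.28 to 0.12 around -0.08 for Gjc1, so a rise of Gjc1 as large as that of Gja5 lies outside its interval. For Scn4b the ratio from 12 and 2 counts was 5.65, with an exact 95% interval of 1.26 to 52.0 for counting error only, and its libraries overlapped.

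**Figure D4:**
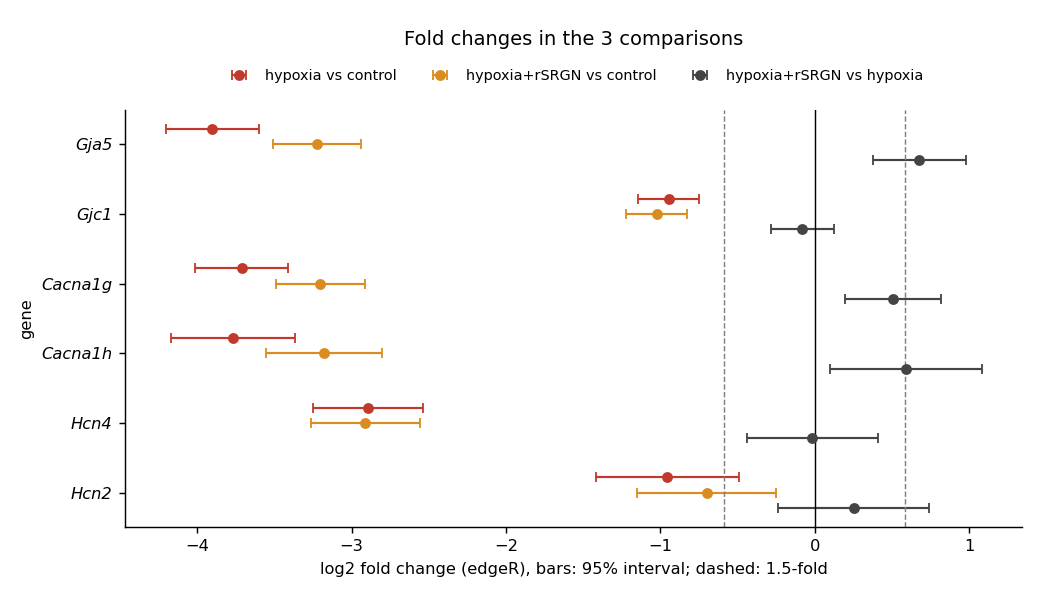
Log2 fold change (edgeR) of the 6 tested genes with 95% intervals in the 3 comparisons, with dashed lines at 1.5-fold in either direction. Both comparisons with control lie left of 0 for every gene, and in Hypoxia+rSRGN against hypoxia the intervals of Gja5, Cacna1g and Cacna1h lie right of 0 while those of Hcn4, Hcn2 and Gjc1 include it.

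The cardiomyocyte genes rose with rSRGN as well, 17 of 20 being called higher at a median log2 fold change of 0.73, and the hypoxia library lowest for Gja5, Cacna1g and Cacna1h was also the lowest for the summed cardiomyocyte genes, at 4426 CPM beside 6484 and 6784. Of the atrial myocyte genes 3 of 8 were called with rSRGN, all higher, at a median log2 fold change of 0.48 over the list, and of the ventricular myocyte genes 4 of 5, all higher, at a median of 0.88. Most of these ventricular genes are among the 20 cardiomyocyte genes as well. Relative to the mean of the 20 cardiomyocyte genes, Gja5 differed by -0.01 (exact permutation p = 1) and Cacna1h by -0.08 (exact permutation p = 0.6). Cacna1g was lower by 0.21, Hcn4 by 0.74 and Gjc1 by 0.82 on the same log2 scale, without overlap between the groups (exact permutation p = 0.1 each, adjusted 0.225), and Hcn2 by 0.49 with overlap (exact permutation p = 0.2). The Gjc1/Gja5 log2 ratio was 0.27, 0.55 and 0.63 with rSRGN, under each of the hypoxia libraries (difference -0.81, exact permutation p = 0.1, adjusted 0.18). Hcn2/Hcn4 differed by 0.25 and Cacna1g/Cacna1h by -0.14, both with overlapping libraries. The part of myocyte RNA as a whole, or of atrial or ventricular myocyte genes, in the rise of Gja5 was not tested.

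Against control, all 6 tested members were still lower in Hypoxia+rSRGN, beside 24.7% of genes called lower and 24.1% called higher. The comparison uses the same control libraries as the first and the same rSRGN libraries as the second, so the 3 sets of values are not independent. Fold reductions were 9.34 for Gja5, 9.22 for Cacna1g, 9.06 for Cacna1h, 7.52 for Hcn4, 2.03 for Gjc1 and 1.63 for Hcn2. The largest edgeR adjusted p was 0.00720, for Hcn2, whose call was lost without control replicate 2 (log2 -0.53, edgeR adjusted p = 0.0627). Scn4b had 12 counts with rSRGN and 10 in control, a ratio of 1.38 with an exact interval of 0.548 to 3.57.

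Other genes of the same pathways were taken from lists of related genes. Beside their counts, 25.1% of all genes tested were called lower and 26.4% higher in hypoxia against control. With rSRGN against hypoxia, 0.859% were called lower and 2.27% higher. Among 6 genes of HCN channels and partners, 4 could be tested and 2 of these were called in hypoxia, both lower. Cav3, the muscle caveolin that associates with HCN4, fell from a mean of 150 to 20.6 CPM (log2 -2.86, edgeR adjusted p = 4.07e-17). With rSRGN 0 of the 4 were called by edgeR or by DESeq2, although the adjusted p was under 0.05 for 2 with edgeR and 3 with DESeq2, whose changes stayed under 1.5-fold (unadjusted p under 0.05 for 3 with either tool). Of 13 sodium channel subunit genes 7 could be tested, of which 3 were called lower and 2 higher in hypoxia and 1 higher with rSRGN.

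Of 10 sodium channel partners 9 could be tested, and 7 were called in hypoxia, all of them lower. Fgf13, an intracellular FGF that binds the sodium channel and sets its inactivation, fell from 81.3 to 6.82 CPM (log2 -3.57) and rose to 11.1 CPM with rSRGN (log2 0.71, edgeR adjusted p = 0.000575). Ank3, which encodes the membrane anchor ankyrin-G, also rose with rSRGN, from 22.8 to 34.6 CPM (log2 0.60, edgeR adjusted p = 0.00127). No other gene of that list was called after rSRGN.

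Among 21 connexins and pannexins besides the members, 10 could be tested, of which 3 were called lower and 5 higher in hypoxia, at a median log2 fold change of 0.67. Gja3 (Cx46), best known from the lens, fell most, from 66.6 to 4.47 CPM (log2 -3.90), a fall of the size seen for Gja5. Gja6 had the largest rise but at low level, from 0.0914 to 0.496 CPM (log2 2.37, edgeR adjusted p = 0.0145). Gja4 (Cx37, an endothelial connexin) was the one gene of the list called with rSRGN and it was lower, at 1.38 CPM beside 4.79 in hypoxia (log2 -1.79, edgeR adjusted p = 0.000269), opposite in direction to Gja5.

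Among 21 other voltage-gated calcium channel genes 13 could be tested, and 8 were called lower and 4 higher in hypoxia. Cacng6, a muscle gamma subunit, fell most (12.6 to 0.641 CPM, log2 -4.29) and Cacng7 rose most (5.603 to 16.8 CPM, log2 1.58). Cacna2d2, an alpha-2-delta auxiliary subunit, was the one gene called with rSRGN, from 1.01 to 2.71 CPM (log2 1.40, edgeR adjusted p = 0.00479).

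The 19 transcription factors of the conduction system were all tested, and 12 were called lower and 4 higher in hypoxia. Irx3, which is needed for rapid conduction in the His-Purkinje network, fell from 130 to 2.08 CPM (log2 -5.97, edgeR adjusted p = 3.53e-19), while Isl1, a factor of progenitor and sinoatrial cells, rose from 0.663 to 3.06 CPM (log2 2.20). With rSRGN 4 were called, all of them higher. The largest changes were in Nkx2-5, a core cardiac factor that activates Gja5 (7.96 to 14.8 CPM, log2 0.89), in Prox1 (6.26 to 10.8 CPM, log2 0.78) and in Hopx (11.4 to 18.8 CPM, log2 0.72).

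Of 12 nodal and His-Purkinje markers 10 could be tested, with 9 called lower and 1 higher in hypoxia and a median log2 fold change of -3.34. Kcne1, a potassium channel beta subunit, fell from 107 to 3.28 CPM (log2 -5.03) and Smoc2, a secreted matrix protein, rose from 32.7 to 56.4 CPM (log2 0.79). With rSRGN 4 were called higher, led by Cacna2d2, Kcne1 (to 8.10 CPM, log2 1.30) and Kcnj3, a subunit of the acetylcholine-gated potassium channel (7.86 to 15.8 CPM, log2 0.99). The lists were written with earlier results of these libraries known, and their counts are a description.

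Over the 9 libraries, log2 CPM of the members was most alike between Cacna1h and Gja5 (Pearson r = 0.997) and least alike between Gjc1 and Hcn2 (r = 0.773). These values describe 3 groups of libraries that differ in level, and carry no test. Among genes with a mean of at least 1 CPM, the most like Gja5 were Smyd1 and Nebl (r = 0.999 each), the most like Cacna1g were Nrap and Ndufv1 (r = 0.999 each), and Frem2 was among the most like Cacna1h (r = 0.998). For Hcn4 they were Spata13 and Mcrs1 (r = 0.997 each), for Gjc1 Ndufb10 (r = 0.995) and Lonp2 (r = 0.994), and for Hcn2 Zmiz2 (r = 0.986) and Zfp758 (r = 0.983). The log2 fold change in hypoxia was -3.92 for Smyd1 and -3.86 for Nebl, beside -3.90 for Gja5. A high r did not mean a fall of the same size, since Ndufv1 was at -1.89 beside -3.71 for Cacna1g, and Spata13 and Mcrs1 were at -1.87 and -1.41 beside -2.90 for Hcn4. The pair most like Hcn2 was at -0.58 and -0.57 beside -0.95.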

How the data were processed

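RNA-seq was analysed from 9 NMVM cultures, 3 per group, assigned by their labels. The authors deposited whole-number counts per gene without normalization. Per the file header they were made with featureCounts 2.0.1 on exons of GENCODE release 25 (GRCm38) without strand, and the submitters' processing notes also name HISAT2 and mm10. All 9 columns were used.

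Counts were filtered by filterByExpr (16762 of 55401 genes kept), scaled by TMM and fitted over all 9 libraries with edgeR 4.0.16 in R 4.3.3. P-values were adjusted by Benjamini-Hochberg over all genes tested, and the step was tested on simulated data. The SE was taken from the fold change and its F statistic. TPM used the table's exon lengths. Ratios and levels relative to cardiomyocyte genes (0.5 counts added) were compared by exact permutation. DESeq2 1.42.0, other scalings and filters, the replicate block and each library left out were alternatives.

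Named genes are all members, the 2 genes most like each, and in each list the largest called rise and fall and up to 3 genes called with rSRGN. Some genes this rule names are not reported here. The members and lists were chosen with earlier results of these data known.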

Additional observations from a re-analysis of the deposited data

How the results depend on the processing

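All 6 tested members were called lower in hypoxia against control under every alternative run, and 5 to 6 in Hypoxia+rSRGN against control when single libraries were left out. In Hypoxia+rSRGN against hypoxia, where 1 member was called, the count was 2 with DESeq2, 2 without the fold limit, 2 with unadjusted p, and 0 to 3 when single libraries were left out. The shares of all genes called under these altered settings are not given, so these counts have no background beside them. Gja5 was called under each alternative but the one without hypoxia replicate 3. With DESeq2 the second was Cacna1h (log2 0.62, adjusted p = 0.0443). The sign of the uncalled Hcn4 and Gjc1 differences turned. Hcn4 was 0.0137 with DESeq2, 0.0123 with RLE scaling and 0.00396 when only the 2 groups were fitted, and -0.12 to 0.17 when single libraries were left out. Gjc1 ranged from -0.163 to 0.0364 when single libraries were left out. With the replicate block, 6, 1 and 6 members were called in the 3 comparisons, as without it, and same-numbered libraries did not deviate together (r from -0.04 to 0.02). Of 63 ratio values all stayed within 1 SD of the main value, but small differences changed sign within that limit. Without hypoxia replicate 3, Cacna1g/Cacna1h was -0.027 in hypoxia against control and 0.015 in Hypoxia+rSRGN against hypoxia. Relative to cardiomyocyte genes, Hcn2 with rSRGN against hypoxia went from -0.49 to -0.19 without the same library. Of 126 values relative to cardiomyocyte genes, 4 did not stay within 1 SD, all with the median in place of the mean. These were, against control, Gja5 at -0.39 in hypoxia and -0.37 with rSRGN, Gjc1 at 1.83 with rSRGN, and Cacna1g in hypoxia, which turned from 0.02 to -0.16. Of the pathway lists after rSRGN, the sodium channel partners had 1 gene called with library size alone and the calcium channel genes 2 with DESeq2, beside 2 and 1 in the report. Depth limits Scn4b, which had at most 7 counts in a library.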
